A study of Homo sapiens with 6 samples.

Results

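The 9 genes described here encode the enzymes that make UDP-GlcNAc in human cells and those that put N-acetylglucosamine (GlcNAc) on proteins as a single O-linked sugar or take it off. They were chosen by name (OGT, OGA, GFPT1, GFPT2, GNPNAT1, PGM3, UAP1, NAGK and EOGT) and are 9 of the 20036 genes in the expression table. In the hexosamine pathway, fructose 6-phosphate and glutamine are turned in a few steps into UDP-GlcNAc, the donor sugar for many kinds of glycosylation. OGT uses that donor to modify serines and threonines of proteins in the nucleus and cytosol, and OGA removes the sugar again. In several cell types the splicing of OGT and OGA transcripts is known to follow the level of the modification.

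The study measured RNA in KGN cells, an established line from a human ovarian granulosa cell tumour, after small interfering RNAs (siRNAs) against OGT. The groups were siOGT1, siOGT2 and the negative control siNC, with 2 libraries each. All 6 libraries came from wild-type KGN cells (genotype label WT) that were transfected with a Lipofectamine reagent and harvested after 48 hours, and no untransfected group was analysed here. The labels do not say whether the 2 libraries of a group were separate cultures, so p-values measure the spread between libraries, which may be technical.

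Read totals of the libraries were recovered from the deposited FPKM values. They were 18408360 and 21416489 for siOGT1, 18123136 and 16756649 for siOGT2, and 20152533 and 20113114 for siNC. The sources used here do not say whether they count sequenced, mapped or assigned reads. Of 15 granulosa cell markers, 8 reached a mean of 1 FPKM (fragments per length of transcript and per size of library), among them FOXL2, at a mean of 5.70 FPKM over the 6 libraries, and NR5A1, at 19.3 FPKM. FSHR, the receptor for follicle-stimulating hormone, was listed at 0 in all 6, and CYP19A1, the aromatase gene, was below 1 FPKM. None of 5 leukocyte and 4 endothelial markers reached 1 FPKM. Genes with a mean of at least 1 FPKM were tested with limma on log2(FPKM + 1), which left 10547, and a call needed a p under 0.05 after Benjamini-Hochberg adjustment over them all. The added 1 makes log2 fold changes understate the change of low genes. For siOGT1 against siNC 1003 genes were called higher and 854 lower, against 537 and 1021 after scaling by a trimmed mean of log ratios. For siOGT2 against siNC the split was 2329 higher and 1411 lower, against 1420 and 1838 with that scaling, and for the mean of both siRNAs 2041 and 1243, against 1123 and 1641. Both siRNAs were set against the same siNC libraries, so their changes are not independent of each other.

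In siNC cells the 9 genes covered a wide range of levels, and OGA stood at the top. OGA averaged 64.5 ± 0.516 FPKM (SD, n = 2), above 95.8% of the genes tested. It was followed by UAP1 at 31.9 ± 0.440 FPKM, OGT at 22.9 ± 0.659, GFPT1 at 16.2 ± 0.0569 and GNPNAT1 at 10.6 ± 0.347 FPKM. NAGK averaged 6.58 ± 0.370 FPKM, EOGT 5.14 ± 0.143, PGM3 3.64 ± 0.0497 and GFPT2 0.389 ± 0.0452 FPKM. No neighbours in this order overlapped between their siNC libraries, but the place of PGM3 rests on the gene length used. The length behind the deposited PGM3 values was 22007 bases, 3.0 times the 7335 bases of its GENCODE release 29 exons. If the same reads were kept, the GENCODE length would give PGM3 8.73 FPKM in siOGT1, 11.9 in siOGT2 and 10.9 FPKM in siNC cells. Its fold changes would then be the same before the 1 is added. How many of these reads lie outside the GENCODE exons is not known, so these values are no recount. For UAP1 the length used was 4619 bases, against 3437 in GENCODE. For the other 7 genes the lengths were close to those of GENCODE.

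**Figure D1:**
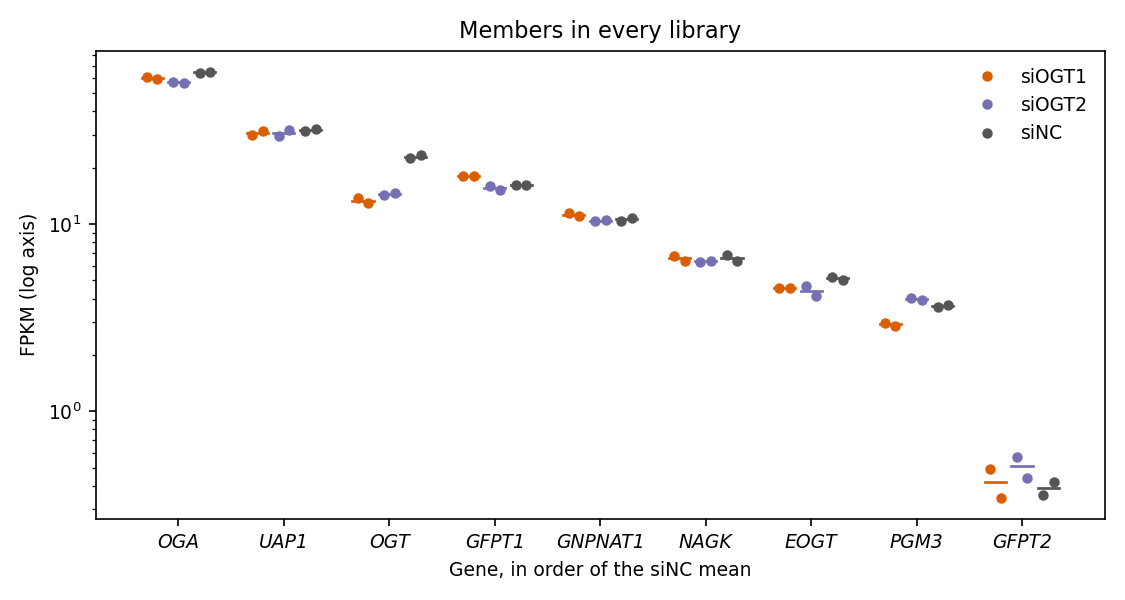
Level of each of the 9 genes in every library, in FPKM on a log10 axis, with siOGT1, siOGT2 and siNC libraries as separate points (2 per group). OGT lies lower in all 4 siOGT libraries than in both siNC libraries, OGA is the gene of highest level in every library, and GFPT2 stays below 1 FPKM.

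Among the 8 genes tested, 1 was called higher (GFPT1) and 2 lower (OGT and PGM3) with siOGT1. Over all genes tested, 9.51% were called higher and 8.1% lower in that comparison. With siOGT2 none was called higher and 3 were called lower (OGT, OGA and EOGT), where 22.1% of all genes were called higher and 13.4% lower. For the mean of both siRNAs the same 3 genes were called lower and none higher, against 11.8% lower and 19.4% higher among all genes. The median log2 fold change of the 8 genes was -0.07 with siOGT1, -0.06 with siOGT2 and -0.06 for the mean, and over all tested genes it was 0.03, 0.05 and 0.04. OGT was the only gene of the 8 called lower with each siRNA, a call that 5.11% of all tested genes shared.

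**Figure D2:**
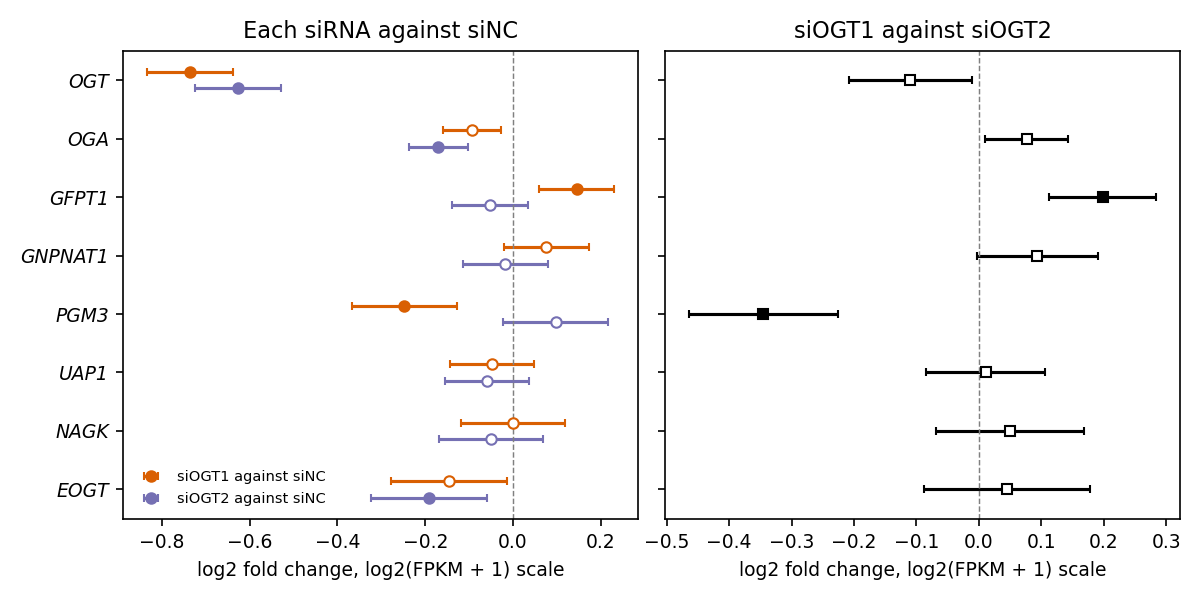
Fitted log2 fold change of each tested gene for siOGT1 against siNC and siOGT2 against siNC on log2(FPKM + 1), with 95% confidence intervals. Filled symbols mark an adjusted p under 0.05 and open symbols the rest. The right panel gives siOGT1 against siOGT2. OGT lies far below the others with both siRNAs. PGM3, GFPT1 and GNPNAT1 take opposite signs with siOGT1 and siOGT2, and their siOGT2 intervals include 0.

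OGT (ENSG00000147162), the O-GlcNAc transferase and the target of both siRNAs, lies on the plus strand of chromosome X at 71533083 to 71575897 (GRCh38, GENCODE release 29), with 11 annotated transcripts. OGT had 13.8 and 12.9 FPKM in siOGT1 libraries, 14.3 and 14.7 in siOGT2 libraries, and 22.4 and 23.4 FPKM in siNC libraries. All 4 siOGT libraries lay below both siNC libraries, and the siOGT1 and siOGT2 libraries did not overlap either. The mean level was 58.3% of that of siNC with siOGT1 and 63.2% with siOGT2. The log2 fold change was -0.74 (SE 0.0435, limma adjusted p = 9.3e-06) with siOGT1 and -0.63 (adjusted p = 8.88e-06) with siOGT2. The transcript was thus lowered and still present, at 2493 and 2705 reads with siOGT1, 2538 and 2409 with siOGT2, and 4431 and 4606 with siNC. Set against each other, siOGT1 and siOGT2 gave an OGT log2 fold change of -0.11 that did not pass (95% interval -0.21 to -0.01, adjusted p = 0.123). In bulk RNA, fewer cells with the transcript and less of it per cell cannot be told apart, and gene-level values do not separate the transcripts.

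OGA (ENSG00000198408), the hexosaminidase that takes O-GlcNAc off proteins, lies on the minus strand of chromosome 10 at 101784443 to 101818465. OGA had 60.9 and 59.8 FPKM in siOGT1 libraries, 57.7 and 56.7 in siOGT2 libraries, and 64.1 and 64.8 FPKM in siNC libraries. The 3 groups did not overlap, and OGA was lowest with siOGT2. With siOGT2, OGA fell to 88.7% of its siNC level, a log2 fold change of -0.17 (SE 0.0295, limma adjusted p = 0.00238) that held under all 18 alternative settings (highest adjusted p = 0.0242). With siOGT1 it stood at 93.6%, and the change of -0.09 (95% interval -0.16 to -0.03) missed the threshold at an adjusted p of 0.0574. For the mean of both siRNAs the change was -0.13 (adjusted p = 0.00481), and it missed the threshold in 1 of 17 settings, without siNC replicate 2 (adjusted p = 0.0539, with 5.39e-05 the lowest of the 17). The siOGT1 and siOGT2 values for OGA were not shown to differ, with a log2 difference of 0.08 (interval 0.01 to 0.14, adjusted p = 0.112).

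Both mRNAs were lower in siOGT cells, OGT by more, so the ratio of OGT to OGA, which no scaling of a library can alter, was lower too. The ratio of OGT FPKM to OGA FPKM was 0.227 and 0.215 in siOGT1 libraries, 0.248 and 0.259 in siOGT2 libraries, and 0.350 and 0.360 in siNC libraries. All 4 siOGT libraries lay below both siNC libraries, and siOGT1 libraries below siOGT2 libraries. The mean ratio was 0.221 ± 0.00804 with siOGT1, 0.253 ± 0.00783 with siOGT2 and 0.355 ± 0.00738 with siNC (SD, n = 2 each). The log2 ratio of both siRNAs together differed from siNC by -0.59, with p = 0.133 in a two-sided exact permutation test, the smallest p that 15 arrangements of the libraries allow.

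**Figure D3:**
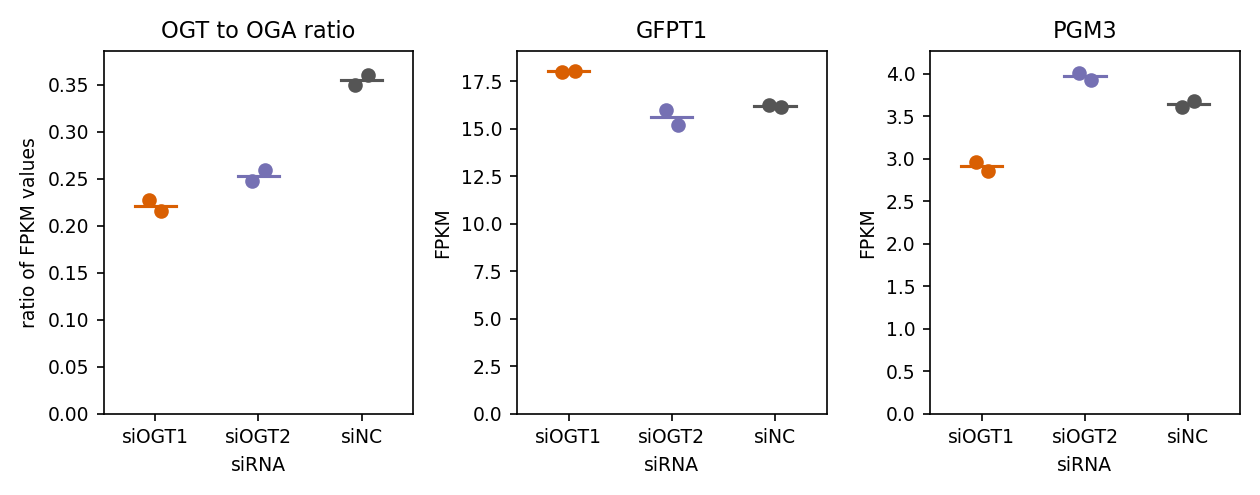
Values in each of the 6 libraries by group (siOGT1, siOGT2, siNC): the ratio of OGT to OGA FPKM, the GFPT1 level in FPKM and the PGM3 level in FPKM, with bars at the group means and axes from 0. The ratio is lower in all 4 siOGT libraries, GFPT1 is highest with siOGT1, and PGM3 is lowest with siOGT1 and highest with siOGT2.

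The promoters of OGT and OGA, and of GFPT1 and PGM3, the 2 genes that differed between the siRNAs, are shown as the DNA around the start site of each, 250 bases before to 50 after, from RefSeq on GRCh38.p14. They are read 5′ to 3′ on the strand of the gene, with GC boxes (GGGCGG on either strand, so also its reverse complement) in capitals. The windows are chrX:71532854-71533153 on the plus strand for OGT, chr10:101818395-101818694 on the minus strand for OGA, chr2:69387178-69387477 on the minus strand for GFPT1 and chr6:83193216-83193515 on the minus strand for the first start of PGM3. The PGM3 starts are numbered in the order listed, and the second lies upstream of the first on the strand of the gene.
OGT: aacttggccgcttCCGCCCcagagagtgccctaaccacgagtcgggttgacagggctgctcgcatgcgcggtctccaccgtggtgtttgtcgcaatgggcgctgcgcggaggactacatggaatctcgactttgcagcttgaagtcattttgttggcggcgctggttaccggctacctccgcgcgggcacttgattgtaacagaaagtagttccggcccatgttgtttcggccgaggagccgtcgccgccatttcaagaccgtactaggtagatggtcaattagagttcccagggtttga
OGA: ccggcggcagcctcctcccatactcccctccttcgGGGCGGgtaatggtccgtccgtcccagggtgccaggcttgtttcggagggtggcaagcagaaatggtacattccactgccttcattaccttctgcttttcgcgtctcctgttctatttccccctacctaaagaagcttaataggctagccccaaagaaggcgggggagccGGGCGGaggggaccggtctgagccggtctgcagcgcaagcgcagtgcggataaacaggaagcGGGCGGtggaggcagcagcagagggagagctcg
GFPT1: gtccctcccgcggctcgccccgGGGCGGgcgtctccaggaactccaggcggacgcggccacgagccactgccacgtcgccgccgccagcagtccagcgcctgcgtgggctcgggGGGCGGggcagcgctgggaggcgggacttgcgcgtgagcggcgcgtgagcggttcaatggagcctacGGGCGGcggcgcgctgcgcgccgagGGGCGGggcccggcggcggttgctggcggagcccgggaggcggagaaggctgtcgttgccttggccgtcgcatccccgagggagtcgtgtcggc
PGM3: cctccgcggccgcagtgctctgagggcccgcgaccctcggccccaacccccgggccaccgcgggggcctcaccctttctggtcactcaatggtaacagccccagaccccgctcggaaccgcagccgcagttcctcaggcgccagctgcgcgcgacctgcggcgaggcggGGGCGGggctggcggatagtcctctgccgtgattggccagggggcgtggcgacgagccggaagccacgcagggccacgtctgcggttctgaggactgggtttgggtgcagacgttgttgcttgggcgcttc
The OGT promoter held 1 GC box, that of OGA 3, that of GFPT1 4 and that of the first PGM3 start 1. The promoter of the second PGM3 start (chr6:83193851-83194150, minus strand), not shown, held 2 and had a GC content of 67%. Of the 35116 RefSeq promoters of this length, 45% held at least 1. The GC content was 57.7% for OGT, 61.7% for OGA, 78% for GFPT1 and 71.7% for the first PGM3 start, and the median over all promoters was 58.7%. On both strands of the 12 promoters listed for 8 of the 9 genes, neither the E-box CACGTG, held by 7.26% of all promoters, nor TGATGCAA, a composite element known to bind ATF4 and held by 0.866%, was found. TGACGTG, the core of an element known to bind XBP1 and held by 1.97% of promoters, was found near UAP1 starts alone. These are letters in a window, and no binding was measured.

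GFPT1 and GFPT2 encode glutamine:fructose-6-phosphate amidotransferases, which catalyse the first and rate-limiting step of the hexosamine pathway. GFPT1 (ENSG00000198380, chromosome 2, 69319769 to 69387254, minus strand) had 17.995 and 18.04 FPKM in siOGT1 libraries, 16.00 and 15.17 in siOGT2 libraries, and 16.24 and 16.16 FPKM in siNC libraries. It was highest in both siOGT1 libraries, and both siOGT2 libraries lay below both siNC libraries. With siOGT1 the mean was 111% of that of siNC, a log2 fold change of 0.14 (SE 0.0383, limma adjusted p = 0.0295). That call ended in 8 of 18 alternative settings, among them the trimmed mean scaling and the omission of any 1 siOGT1 or siNC library (highest adjusted p = 0.128). With siOGT2 the change of -0.05 did not pass (interval -0.14 to 0.03, adjusted p = 0.310). The difference between the siRNAs passed, with a log2 fold change of 0.20 for siOGT1 against siOGT2 (interval 0.11 to 0.28, adjusted p = 0.00784). It missed the threshold in 1 setting, the omission of siOGT2 replicate 2, at an adjusted p of 0.0645.

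GFPT2 (ENSG00000131459, chromosome 5, 180300690 to 180353387, minus strand) was close to the limit of detection and was not tested. GFPT2 had 0.495 and 0.346 FPKM in siOGT1 libraries, 0.573 and 0.442 in siOGT2 libraries, and 0.357 and 0.421 FPKM in siNC libraries. These values overlapped between siOGT1 and siNC and lay higher with siOGT2 than with siNC. They came from 43 and 35 reads with siOGT1, 49 and 35 with siOGT2, and 34 and 40 with siNC, and for the highest of these, 49 reads, the exact 95% Poisson interval was 36.3 to 64.8 reads (counting error only). GFPT2 made up 2.68% and 1.88% of the summed GFPT1 and GFPT2 FPKM with siOGT1, 3.46% and 2.83% with siOGT2, and 2.15% and 2.54% with siNC, so GFPT1 was the main form of this enzyme's mRNA in every library. The sources used here do not give how reads that match both paralogs were counted.

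PGM3 (ENSG00000013375, chromosome 6, 83161150 to 83193936, minus strand) encodes phosphoacetylglucosamine mutase, which moves the phosphate of GlcNAc phosphate within the pathway. PGM3 had 2.96 and 2.86 FPKM in siOGT1 libraries, 4.01 and 3.93 in siOGT2 libraries, and 3.61 and 3.68 FPKM in siNC libraries. The 3 groups did not overlap: siOGT1 libraries were lowest and siOGT2 libraries highest. With siOGT1 the mean was 79.9% of that of siNC, a log2 fold change of -0.25 (SE 0.0531, limma adjusted p = 0.0123). That call ended without siNC replicate 1, siNC replicate 2 or siOGT1 replicate 2 (highest adjusted p = 0.0730). With siOGT2 the mean was 109% of that of siNC, and the change of 0.10 did not pass (interval -0.02 to 0.22, adjusted p = 0.181). Set directly against each other, siOGT1 was lower than siOGT2 by a log2 fold change of -0.35 (interval -0.46 to -0.23, adjusted p = 0.00235), a call that held under all 17 alternatives (highest adjusted p = 0.0208).

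Part of the PGM3 exons in GENCODE release 29, 14.8% of their bases, overlaps exons of DOP1A on the opposite strand. The overlap within the 22007 bases behind the deposited PGM3 values is not known. DOP1A had 3.76 and 3.82 FPKM in siOGT1 libraries, 3.65 and 3.40 in siOGT2 libraries, and 3.27 and 3.16 FPKM in siNC libraries. It was higher with siOGT1, where PGM3 was lower (log2 fold change 0.18, adjusted p = 0.0481), a call that ended in 12 of 17 alternative settings (highest adjusted p = 0.189). With siOGT2, where PGM3 lay above siNC, both DOP1A libraries also lay above siNC, and the change of 0.10 did not pass (adjusted p = 0.179). The siOGT1 and siOGT2 values for DOP1A were not shown to differ (log2 difference 0.08, interval -0.04 to 0.21, adjusted p = 0.356). The sources used here do not give a strand setting for the counting, so reads from the shared bases cannot be told apart.

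Among the 8 tested genes, GFPT1 was thus called higher and PGM3 lower when siOGT1 was set against siOGT2, while 8.35% of all genes were called higher and 8.24% lower. The median of the 8 genes was 0.05 in this comparison and that of all tested genes was -0.01. A list of 10 interferon-induced genes was chosen with earlier results of these data known, so its counts are no test. All 10 were also called higher with siOGT1 than with siOGT2 (median log2 difference 0.79). All 10 were called below siNC with both siRNAs (medians -0.89 with siOGT1 and -1.70 with siOGT2), beside 8.1% and 13.4% of all genes. Their part in the GFPT1 and PGM3 values was not tested.

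The acetyltransferase and the pyrophosphorylase of the pathway were not called in any comparison. GNPNAT1 (ENSG00000100522, chromosome 14, 52775194 to 52791668, minus strand) encodes the enzyme that acetylates glucosamine 6-phosphate. GNPNAT1 had 11.4 and 11.0 FPKM in siOGT1 libraries, 10.3 and 10.6 in siOGT2 libraries, and 10.3 and 10.8 FPKM in siNC libraries, so both siOGT1 libraries were highest and the siOGT2 and siNC libraries overlapped. Its log2 fold change was 0.08 with siOGT1 (interval -0.02 to 0.17, adjusted p = 0.261) and -0.02 with siOGT2 (interval -0.11 to 0.08, adjusted p = 0.777). An antisense gene, AL139317.3, covers 35.6% of the GNPNAT1 exon bases, and reads from it cannot be told apart without strand.

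UAP1 (ENSG00000117143, chromosome 1, 162561506 to 162599842, plus strand) encodes the pyrophosphorylase that makes UDP-GlcNAc in the last step. UAP1 had 30.0 and 31.6 FPKM in siOGT1 libraries, 29.5 and 31.7 in siOGT2 libraries, and 31.6 and 32.2 FPKM in siNC libraries. The siOGT2 range overlapped that of siNC, and the higher siOGT1 library and the lower siNC library had nearly the same value. Its log2 fold change was -0.05 with siOGT1 (interval -0.14 to 0.05, adjusted p = 0.475) and -0.06 with siOGT2 (interval -0.15 to 0.04, adjusted p = 0.309). Changes within these intervals remain possible with 2 libraries per group. Summed over the 5 enzymes of the route to UDP-GlcNAc (GFPT1, GFPT2, GNPNAT1, PGM3 and UAP1), the level was 62.9 and 63.8 FPKM with siOGT1, 60.4 and 61.8 with siOGT2, and 62.1 and 63.3 FPKM with siNC. At these lengths the siOGT1 and siNC sums overlapped and both siOGT2 sums lay below both siNC sums. The same reads were also divided by the GENCODE lengths, an alternative chosen after seeing the data and no recount of reads within those exons. The sums were then 79.1 and 80.4 FPKM with siOGT1, 78.5 and 80.6 with siOGT2, and 80.2 and 81.7 FPKM with siNC. At those lengths the siOGT1 and siOGT2 sums each overlapped those of siNC.

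NAGK and EOGT stand beside the main route. NAGK (ENSG00000124357, chromosome 2, 71064344 to 71079805, plus strand) encodes N-acetylglucosamine kinase, which returns GlcNAc from breakdown to the pathway. NAGK had 6.77 and 6.38 FPKM in siOGT1 libraries, 6.27 and 6.36 in siOGT2 libraries, and 6.84 and 6.31 FPKM in siNC libraries. The siOGT1 and siOGT2 ranges each overlapped that of siNC, and the log2 fold change of -0.05 with siOGT2 had an interval of -0.17 to 0.07 (adjusted p = 0.489). With siOGT1 the interval was -0.12 to 0.12 (adjusted p = 0.999).

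EOGT (ENSG00000163378, chromosome 3, 68975214 to 69013961, minus strand) encodes a separate O-GlcNAc transferase, which works in the endoplasmic reticulum on proteins bound for the cell surface, such as Notch receptors. EOGT had 4.57 and 4.53 FPKM in siOGT1 libraries, 4.65 and 4.13 in siOGT2 libraries, and 5.24 and 5.04 FPKM in siNC libraries. All 4 siOGT libraries lay below both siNC libraries, and the siOGT1 and siOGT2 libraries overlapped. With siOGT2, EOGT fell to 85.3% of its siNC level (log2 fold change -0.19, SE 0.0589, limma adjusted p = 0.0323). With siOGT1 it stood at 88.5%, and the change of -0.15 did not pass (interval -0.28 to -0.01, adjusted p = 0.121). The siOGT2 call ended in 4 settings: with no filter on low values, and without siNC replicate 1, siNC replicate 2 or siOGT2 replicate 2 (highest adjusted p = 0.199). Without siOGT2 replicate 2, the lowest library, the log2 fold change was -0.12, and over the omission of each library in turn it ran between -0.26 and -0.12. The call for the mean of both siRNAs (log2 fold change -0.17, adjusted p = 0.0331) ended in 6 settings (highest adjusted p = 0.187). The siOGT1 and siOGT2 values for EOGT differed by 0.04 (interval -0.09 to 0.18, adjusted p = 0.659).

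Genes around the pathway were taken from 4 lists, described here by counts over the fit of all genes. Over all tested genes 9.51% were called higher and 8.1% lower with siOGT1, 22.1% higher and 13.4% lower with siOGT2, and the medians were 0.03 and 0.05. Of 14 tested genes that feed the pathway with glucose, glutamine or UTP, 3 were called higher and 2 lower with siOGT1, 6 higher and 5 lower with siOGT2, and the list's median log2 fold change was 0.04 with siOGT1 and 0.09 with siOGT2. That is 21.4% higher and 14.3% lower with siOGT1, and 42.9% higher and 35.7% lower with siOGT2, above the shares over all genes in both directions. HK2, a hexokinase that traps glucose in the cell, had 29.6 and 28.0 FPKM in siOGT1 libraries, 26.2 and 26.4 in siOGT2 libraries, and 33.3 and 33.6 FPKM in siNC libraries, and it fell with both siRNAs (log2 fold changes -0.21, adjusted p = 0.00401, and -0.34, adjusted p = 0.000153). HK1, another hexokinase of the list named after its values were seen, had a higher level and went the other way. HK1 had 58.1 and 56.7 FPKM in siOGT1 libraries, 54.3 and 56.6 in siOGT2 libraries, and 51.8 and 52.9 FPKM in siNC libraries. Its log2 fold change was 0.13 with siOGT1 (adjusted p = 0.0245) and 0.08 with siOGT2, which did not pass (adjusted p = 0.0858). HK1 is given for the main settings alone. SLC1A5, a glutamine transporter, had 8.97 and 9.08 FPKM in siOGT1 libraries, 9.95 and 9.83 in siOGT2 libraries, and 7.57 and 7.36 FPKM in siNC libraries. It rose with both siRNAs (0.24, adjusted p = 0.00366, with siOGT1 and 0.36, adjusted p = 0.000231, with siOGT2). SLC38A2, another glutamine transporter, named after its values were seen, went the other way. SLC38A2 had 120.4 and 114.8 FPKM in siOGT1 libraries, 120.4 and 115.8 in siOGT2 libraries, and 128.1 and 129.2 FPKM in siNC libraries, and it fell with both siRNAs (-0.13, adjusted p = 0.0286, with siOGT1 and -0.12, adjusted p = 0.0206, with siOGT2). Each SLC38A2 call ended in 5 of 18 settings, among them no filter on low values and the omission of either siNC library (highest adjusted p = 0.137 with siOGT1 and 0.142 with siOGT2). CAD, which starts pyrimidine synthesis and thereby the supply of UTP, rose by 0.19 (adjusted p = 0.00727) with siOGT1 and 0.23 (adjusted p = 0.00141) with siOGT2, where the siOGT1 call ended without siNC replicate 1 (adjusted p = 0.0527). SLC2A3, a glucose transporter, fell with siOGT2 (-0.25, adjusted p = 0.000591) and did not pass with siOGT1 (-0.06, adjusted p = 0.278), and the difference between the siRNAs passed (0.20, adjusted p = 0.00449).

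Of 13 genes of amino sugar salvage, breakdown and the sialic acid branch, 1 was called higher with each siRNA, and none was called lower with siOGT1 and 1 with siOGT2. In this list 1 gene is 7.69%. With siOGT2 that share was called in each direction, below the 22.1% higher and near the 13.4% lower over all genes. With siOGT1 the 7.69% called higher is near the 9.51% over all genes, and none was called lower, beside 8.1% over all genes. CMAS, which activates sialic acid, rose by 0.16 (adjusted p = 0.0142) with siOGT1 and 0.20 (adjusted p = 0.00311) with siOGT2. NANS, the sialic acid synthase, fell with siOGT2 (-0.24, adjusted p = 0.00968) and had a log2 fold change of -0.15 with siOGT1 (adjusted p = 0.109). The CMAS call with siOGT1 ended without siNC replicate 1, siNC replicate 2 or siOGT1 replicate 1 (highest adjusted p = 0.0806), and the NANS call without siNC replicate 1 or siOGT2 replicate 1 (highest 0.0622). RENBP and HEXD, also named by the rule for this list, did not pass in either comparison. The list's median was 0.04 with siOGT1 and 0.00394 with siOGT2, beside 0.03 and 0.05 over all genes.

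Of 6 tested genes that interconvert UDP-GlcNAc or carry nucleotide sugars across membranes, 1 was called higher and 1 lower with siOGT1, and 2 higher and none lower with siOGT2 (medians 0.10 and 0.09, beside 0.03 and 0.05 over all genes). In so short a list 1 gene is 16.7%, and these counts are near the shares over all genes (9.51% higher and 8.1% lower with siOGT1, 22.1% and 13.4% with siOGT2). SLC35D1, a transporter of nucleotide sugars into the endoplasmic reticulum, had 4.41 and 4.53 FPKM in siOGT1 libraries, 10.02 and 9.70 in siOGT2 libraries, and 9.46 and 9.97 FPKM in siNC libraries. Both siOGT1 libraries stood far below the other 4, which overlapped. The mean with siOGT1 was 46.0% of that of siNC, lower than the 58.3% of OGT itself. The log2 fold change was -0.97 (adjusted p = 3e-06) with siOGT1 and 0.02 (adjusted p = 0.766) with siOGT2, and the siRNAs differed by -0.99 (adjusted p = 2.83e-06). UGP2, which makes UDP-glucose, rose with siOGT2 (0.16, adjusted p = 0.0138) and had a change of 0.13 with siOGT1 (adjusted p = 0.0511). SLC35B4, a UDP-xylose and UDP-GlcNAc transporter, rose with siOGT2 (0.16, adjusted p = 0.00841), and SLC35A3, a UDP-GlcNAc transporter of the Golgi, did not pass. The UGP2 call ended with the trimmed mean scaling and without siNC replicate 2 or siOGT2 replicate 2 (highest adjusted p = 0.0896), and the SLC35B4 call without siNC replicate 1 (adjusted p = 0.0638).

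Of 20 tested enzymes that use UDP-GlcNAc for other glycans, none was called higher and 2 lower with siOGT1, and 6 higher and 2 lower with siOGT2 (medians -0.005 and 0.04, beside 0.03 and 0.05 over all genes). The 30% called higher and 10% called lower with siOGT2 are near the 22.1% and 13.4% over all genes, and with siOGT1 10% were called lower, near the 8.1% over all genes. None of the 20 was called higher with siOGT1, beside 9.51% over all genes. GCNT2, which branches polylactosamine chains, fell with siOGT2 (-0.37, adjusted p = 0.000531) and had a change of -0.03 with siOGT1 (adjusted p = 0.765), and the difference between the siRNAs passed (0.35, adjusted p = 0.00144). B3GNT2, which extends such chains, fell with siOGT2 (-0.24, adjusted p = 0.0038), and the siRNAs differed by 0.23 (adjusted p = 0.00835). POMGNT1, which acts on O-mannosyl glycans, and GNPTAB, which starts the mannose 6-phosphate tag of lysosomal enzymes, rose with siOGT2, POMGNT1 by 0.25 (adjusted p = 0.00927) and GNPTAB by 0.16 (adjusted p = 0.0235). With siOGT1 the change of GNPTAB was of nearly the same size and missed the threshold (0.15, interval 0.04 to 0.25, adjusted p = 0.0574), passing in 2 of 18 alternative settings (adjusted p 0.0139 to 0.192 over the 18), and that of POMGNT1 was 0.08 (interval -0.05 to 0.21, adjusted p = 0.358). The POMGNT1 call ended without siNC replicate 1 or siOGT2 replicate 2 (highest adjusted p = 0.0706), and that of GNPTAB with the trimmed mean scaling and without any 1 of the siOGT2 or siNC libraries (highest 0.109). The B3GNT2 difference between the siRNAs missed the threshold without siOGT2 replicate 2 (adjusted p = 0.0719).

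**Figure D4:**
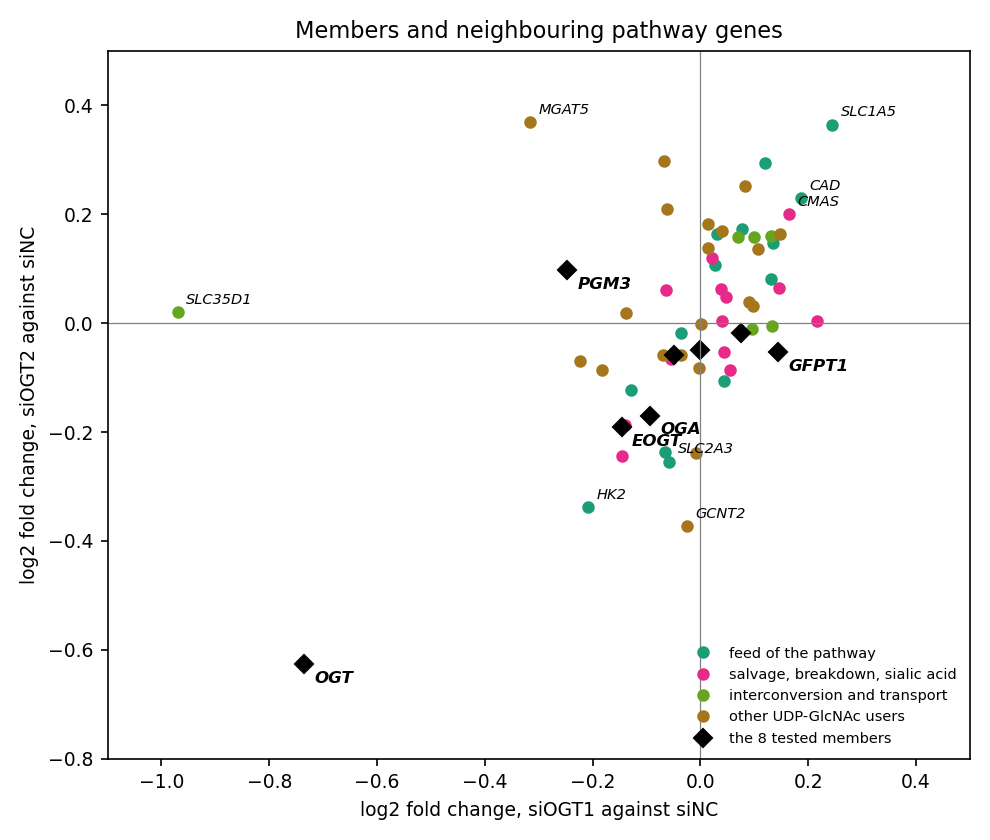
Log2 fold change on log2(FPKM + 1) for siOGT1 against siNC (horizontal) and siOGT2 against siNC (vertical), for the 8 tested genes (diamonds) and the tested genes of the 4 neighbouring lists (circles). OGT lies alone at the lower left, and SLC35D1 lies far to the left near 0 on the vertical axis. Both axes share the siNC libraries.

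The genes whose profile over the 6 libraries lay nearest to that of OGT were found by the root mean square difference of log2(FPKM + 1) values, each taken relative to the siNC mean. HBEGF, a ligand of the EGF receptor, was nearest at 0.0331. HBEGF had 7.65 and 7.12 FPKM in siOGT1 libraries, 8.10 and 7.80 in siOGT2 libraries, and 12.9 and 12.7 FPKM in siNC libraries, so it was lower in all 4 siOGT libraries and lowest with siOGT1, as OGT was. PI4K2B (0.0691), C21orf91 (0.0769), IFIT5 (0.0864) and MT2A (0.0909) came next. Nearest to OGA were RC3H2 (0.0128), MSL3 (0.0133) and CEP152 (0.0141), whose small distances go with the small change of OGA itself. These genes were picked for likeness, so their values describe the 6 libraries and no test applies.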

How the data were processed

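RNA from 6 KGN libraries was measured by sequencing. The submitters' processing notes name cutadapt 1.15 and HISAT2, and GRCh38 as the genome build. The sources used here give no counting program, strand setting or annotation. The authors deposited 1 table of FPKM values for 20036 Ensembl genes. Symbols were found for 20011 of them. Whole reads, and so each library's total, were recovered from the steps between FPKM values (tolerance 0.01 reads) for 10510 of the 10547 genes tested. They gave library totals, read counts and 1 alternative test.

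Genes whose FPKM averaged 1 or more were fitted as log2(FPKM + 1) in 1 model of all 6 libraries (limma 3.58.1 in R 4.3.3, eBayes with an intensity trend, 3 residual and 6.31 prior degrees of freedom). Tests were two-sided, with Benjamini-Hochberg adjustment over all tested genes. The script was tested on simulated data. The OGT to OGA ratio had an exact permutation test (SciPy 1.17.1). Exon overlaps and gene coordinates came from GENCODE release 29, and promoters from RefSeq.

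The 9 genes, the neighbouring lists, the interferon-induced genes and the markers were chosen with earlier results of these data known. Named by rule were the 9 genes, up to 4 genes of each neighbouring list with the smallest p for the mean of both siRNAs, and the 5 genes nearest to OGT and 3 nearest to OGA. Alternatives covered the pseudocount, filter, scaling, variance model, replicate block, recovered reads, the groups fitted and the omission of each library, and, added later, the gene length behind a sum.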

Additional observations from a re-analysis of the deposited data

Results flagged for a closer look

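PGM3 and GFPT1 stood out because their values with siOGT1 and siOGT2 differed from each other by a direct test. For PGM3 the log2 fold change of siOGT1 against siOGT2 was -0.35 (limma adjusted p = 0.00235), with both siOGT1 libraries below and both siOGT2 libraries above the siNC libraries. For GFPT1 it was 0.20 (adjusted p = 0.00784), with both siOGT1 libraries above and both siOGT2 libraries below the siNC libraries. Groups of 2 libraries are too small to look for single outlying libraries.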

How the results depend on the processing

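Over 560 values of the 8 tested genes under the alternatives, 522 kept their direction and side of the threshold, 23 lost a call and 6 gained one. The other 9 changed sign, none of them in a comparison where the gene was called. OGT stayed called against siNC under each alternative (highest adjusted p = 0.00155 with siOGT1, 0.00108 with siOGT2). OGA gained a call with siOGT1 with a filter at 5 FPKM, the trimmed mean scaling or voom on recovered reads (lowest adjusted p = 0.0139), and lost that for the mean without siNC replicate 2 (0.0539). PGM3 gained calls with voom for siOGT2 (0.0314) and the mean (0.0491), and OGT for siOGT1 against siOGT2 (0.0334). Without a filter on low values 1138 genes were called for siOGT1 against siNC, where 1857 were reported, and 1017 for siOGT1 against siOGT2, where 1750 were. A filter at 5 FPKM left 1 of the 9 genes called for siOGT1 against siOGT2. PGM3 does not reach that filter at the length behind its deposited values. Leaving out 1 library at a time gave 945 to 1737 genes for siOGT1 (of the 9, 1 to 3), 2222 to 3749 for siOGT2 (2 to 3), 1654 to 2971 for the mean (1 to 3) and 816 to 1533 for siOGT1 against siOGT2 (1 to 2). The main counts for siOGT2 and the mean were 3740 and 3284. Some genes changed sign when 1 library was left out, in comparisons where they had no call. NAGK ran between -0.050 and 0.050 with siOGT1 and between -0.075 and 0.025 for the mean. GNPNAT1 ran between -0.048 and 0.013 with siOGT2 and between -0.0016 and 0.060 for the mean. For siOGT1 against siOGT2, UAP1 ran between -0.041 and 0.062 and EOGT between -0.025 and 0.11. GNPNAT1 also stood at -0.0092 for the mean with the trimmed mean scaling. Of the neighbouring genes, GCNT2 ran between -0.059 and 0.0078 and B3GNT2 between -0.064 and 0.050 with siOGT1, and SLC35D1 with siOGT2 between -0.014 and 0.054, with -0.0014 without siOGT2 replicate 1, -0.023 with the trimmed mean scaling and -0.0013 with equal sums. The cause of these shifts was not tested. With the replicate number as a replicate block, 1773, 3636, 3160 and 1674 genes were called for siOGT1, siOGT2, the mean and siOGT1 against siOGT2, the calls among the 9 genes numbered 3, 3, 3 and 2 as before, DOP1A lost its call with siOGT1 (adjusted p = 0.0604), and the log2 OGT to OGA ratio differed by -0.59. The labels do not say that the numbers pair libraries, and deviations of replicate 1 correlated at -0.0218 between siOGT1 and siNC, -0.0262 between siOGT2 and siNC and 0.0494 between siOGT1 and siOGT2. The mean of both siRNAs has no fit of the compared groups alone. Depth limits GFPT2, with 34 to 49 reads a library: tested without a filter, its log2 fold change was 0.03 with siOGT1 (interval -0.14 to 0.20) and 0.12 with siOGT2 (interval -0.05 to 0.29).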

Other observations

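MGAT5, which adds a branch to N-glycans and uses UDP-GlcNAc, is named here after its values were seen. MGAT5 had 3.97 and 3.68 FPKM in siOGT1 libraries, 6.96 and 6.54 in siOGT2 libraries, and 4.78 and 5.23 FPKM in siNC libraries. The 3 groups did not overlap, with siOGT1 lowest and siOGT2 highest, the same order as for PGM3. It was lower with siOGT1 (log2 fold change -0.32, limma adjusted p = 0.00628, and 0.0558 without siNC replicate 2) and higher with siOGT2 (0.37, adjusted p = 0.00161), and siOGT1 differed from siOGT2 by -0.68 (adjusted p = 9.86e-05).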
